A study of Arabidopsis thaliana with 27 samples.

Results

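The comparison described here sets stamens collected 8 h after methyl jasmonate against stamens collected 2 h after it, in the jasmonate-deficient opr3 mutant of Arabidopsis thaliana. All 3 arrays labelled JA 8 h and all 3 labelled JA 2 h were used, 6 of the 27 arrays of the study, with every probe set of the ATH1 array measured. Flower buds of stage 12 had been treated with 0.03% methyl jasmonate (JA) under continuous light, and stamens were taken at 0.5, 2, 8 or 22 h. A second series, used here for comparison, received the precursor OPDA (12-oxophytodienoic acid) at 0.03% and was sampled at the same hours. Untreated opr3 stamens (3 arrays) and 1 array of the wild type Ws complete the set. All groups except Ws carry the opr3 mutation, the study as analysed here holds no mock-treated arrays, and each array is 1 stamen sample whose origin in separate plants is not stated. P-values therefore measure the spread between these samples, which may be technical. Replicate 3 of JA 2 h carries opr2 in its title and was kept in its group.

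Jasmonate is made from linolenic acid by a chain of plastid and peroxisome enzymes, among them the OPDA reductase OPR3, and acts after conjugation to isoleucine by releasing MYC and related transcription factors from JAZ repressors. In stamens it is required for filament elongation, anther opening and the last stages of pollen maturation. Mutants of OPR3 are male-sterile and recover fertility after a single treatment of the buds with jasmonate.

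Each value is a MAS5 signal, the summarised brightness of a probe set, given by the authors at a common target of 125. The median signal of the arrays lay between 47.5 and 56.9. JA 0.5 h replicates 1 and 2 held identical values at 100% of probe sets and were counted once. None of the 6 genes fixed as markers of stamen identity had a named probe set, nor had OPR3 itself, and they were not analysed here. Of 13 pollen markers, 6 were named, and their summed signal was 3307 to 4590 on the JA 2 h arrays and 3950 to 7460 on the JA 8 h arrays, with JA 8 h replicate 2 the highest. Of 13 tapetum markers 2 were named, with sums of 333 to 677.8 and 33.7 to 381. For leaf (2 of 9 named) the sums were 1156 to 1421 and 896 to 1494, and for carpel and ovule (2 of 7 named) 165.0 to 210.4 and 128 to 201. For each of the 4 cell types the sums of the 2 h and 8 h arrays overlapped. In whole stamens, fewer cells of a type and less RNA per cell cannot be told apart.

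Between 2 h and 8 h after JA, 733 of 14028 tested probe sets changed (5.23%), 304 of them higher (2.17%) and 429 lower (3.06%) at 8 h, by limma at a Benjamini-Hochberg adjusted p under 0.05. A change of at least 2-fold on the log2(signal + 16) scale was reached by 157 of the rises and 143 of the falls. That scale understates the change of dim probe sets. The median over all tested probe sets was -0.05. Arrays of equal replicate number resembled each other, though replicates 2 and 3 of both groups also shared a scan day. With the replicate number as a block 1272 probe sets were called, 544 higher and 728 lower, among them all 733. Leaving out 1 array at a time gave between 396 and 731 calls, the fewest without JA 8 h replicate 2, then 440 without JA 2 h replicate 1. Without the array titled opr2, 563 were called, of which 524 were among the 733. JA 8 h replicate 2 was the highest of its group in 184 of the 304 rises and the lowest in 250 of the 429 falls.

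Over all tested probe sets, every 8 h array was above every 2 h array for 1192 (8.5%) and below for 1692 (12.1%). Both groups were present on 2 of the scan days. Within these days the median rise was 1.17 and 0.92 and the median fall -0.95 and -0.77 on the log2 scale, beside -0.08 and -0.01 over all tested probe sets. The arrays of these days are among those that gave the calls, so the choice of probe sets largely fixed the sign of these values, and they are a description only. A gene was named only where its probe set was paired with a single gene. Over the 7502 tested genes with 1 name, each by its brightest probe set, 144 were higher (1.92%) and 211 lower (2.81%). Of these, 25 and 42 have a symbol in RefSeq, and for most of the others the locus is printed without a role. For AT2G31110 and AT1G59740 the name and family come from the synonyms in RefSeq's table. The shares of 1.92% and 2.81% are the background for the counts of each gene list below, and no list was tested as a set.

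**Figure D1:**
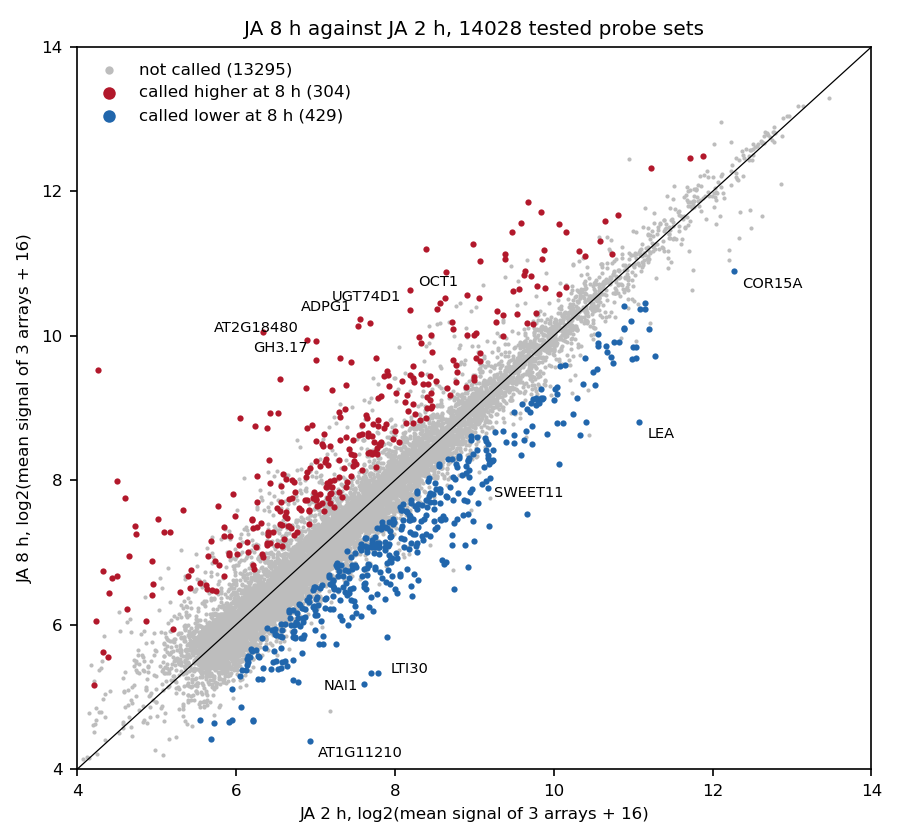
Mean signal at 8 h (vertical axis) against mean signal at 2 h after JA (horizontal axis), both as log2(mean signal of 3 arrays + 16), for 14028 tested probe sets. The 304 probe sets called higher lie above the diagonal and the 429 called lower below it, with calls over the whole range of signal and COR15A among the brightest of the falls.

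Genes of jasmonate synthesis, methylation and breakdown were few among the named probe sets, and the 2 that were called went down. The JA synthesis list held 4 tested genes: OPCL1, AIM1, the methyltransferase JMT and the transcription factor ORA47. Of these 2 fell and none rose, beside 2.81% lower and 1.92% higher over all 7502 tested genes. AIM1 was not called (log2 change 0.11, limma adjusted p = 0.701). OPCL1, a peroxisomal ligase that activates OPC-8:0 for the shortening of its side chain on the way to jasmonate, had signals of 224, 193 and 202 at 2 h and 95.3, 102 and 134 at 8 h. The groups did not overlap, and the log2 change was -0.82 (95% interval -1.21 to -0.44, limma adjusted p = 0.00751). Its level at 2 h, 206 ± 16 (SD, n = 3), was close to that at 0.5 h, where the 2 distinct arrays read 252.6 and 146, against 45 ± 9.5 (SD, n = 3) in untreated and 51.7 ± 8.26 (SD, n = 3) in 22 h stamens. JMT, which methylates jasmonate, had 365, 342 and 187 at 2 h and 118, 69.6 and 57.9 at 8 h, again without overlap, and a log2 change of -1.68 (95% interval -2.41 to -0.94, limma adjusted p = 0.00487). At 22 h its mean was 578 ± 167 (SD, n = 3) and untreated stamens had 148 ± 68 (SD, n = 3). ORA47, an AP2/ERF factor that activates jasmonate synthesis genes, had its peak before this step, with a mean of 122.2 at 0.5 h. Its signals were 21, 9.3 and 35.5 at 2 h and 10.2, 5.7 and 35.9 at 8 h, overlapping and low in both groups (log2 change -0.24, limma adjusted p = 0.786).

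None of 3 tested jasmonate oxidases, which hydroxylate JA to an inactive form, passed the test, and all 3 had a log2 change above 0. JOX2 and JOX4 were identified by their loci, since RefSeq's table does not give these names, and JRG21 belongs to the same family. JOX2 was already induced at 2 h, when its log2 change over untreated stamens was 3.79 (limma adjusted p = 4.16e-09). It then had signals of 518, 470.3 and 549 at 2 h and 773, 959.6 and 855 at 8 h. Every 8 h array lay above every 2 h array, with a log2 change of 0.73 (95% interval 0.16 to 1.30, limma adjusted p = 0.146). Its adjusted p was 0.00667 with a pseudocount of 64 and 0.0217 when only the compared groups were fitted. JOX4 had 26.9, 50.7 and 77.2 at 2 h and 61.5, 99.4 and 103 at 8 h, and its groups overlapped (log2 change 0.67, limma adjusted p = 0.304). At 22 h JOX4 reached 3219.7 ± 871 (SD, n = 3). JRG21 read 24.3 to 66.5 over the 6 arrays, with a log2 change of 0.29 (limma adjusted p = 0.651).

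The rises included enzymes that act on the cell wall. ADPG1, a polygalacturonase that loosens pectin where anthers open, had 201, 140.0 and 178 at 2 h and 1125, 1592 and 833 at 8 h. All 8 h arrays were far above all 2 h arrays, and the log2 change was 2.63 (95% interval 1.99 to 3.27, limma adjusted p = 7.29e-06). It stayed high at 22 h, at 1552 ± 259 (SD, n = 3). The 2 other tested genes of the anther dehiscence list, GUT2 and IRX15, did not pass the test. GH9B17, of the endoglucanase family that cuts glucan chains, had 69.3, 45.9 and 63.8 at 2 h and 353, 447 and 449 at 8 h and a log2 change of 2.52 (95% interval 2.12 to 2.92, limma adjusted p = 1.26e-08). Its 8 h level of 416 ± 55 (SD, n = 3) was the highest of its JA course, against 145 ± 44.7 (SD, n = 3) at 22 h. It was the 1 member called of 10 tested endoglucanases, and the list's median was 0.01.

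ALDH2C4, an aldehyde dehydrogenase that makes ferulic and sinapic acid for wall-bound phenolics, had 297, 334 and 372 at 2 h and 890.2, 1172 and 997 at 8 h. The groups were apart, with a log2 change of 1.56 (95% interval 1.05 to 2.07, limma adjusted p = 0.000254), and none of the other tested aldehyde dehydrogenases (8 in all) passed the test. Among 13 tested members of the family whose best-known members acetylate wall polysaccharides, 1 rose and 2 fell. Over all 7502 tested genes 1.92% rose and 2.81% fell. TBL20 rose by 1.22 (limma adjusted p = 0.0208), with JA 8 h replicate 2 the highest array at 382. Its adjusted p was 0.0746 without JA 2 h replicate 1, 0.0838 without JA 2 h replicate 3 and 0.187 without JA 8 h replicate 2. AT2G31110 (TBL40) fell, with 173, 144 and 177 at 2 h and 65.1, 59.5 and 56.3 at 8 h and a log2 change of -1.24 (limma adjusted p = 4.11e-06). A second probe set of AT2G31110, dimmer at both times, had a log2 change of -0.53 (limma adjusted p = 0.291). TBL26 fell by 0.65 on the log2 scale (limma adjusted p = 0.0437) from a level raised at 2 h, and its call was lost in 5 of 6 fits without 1 array, at adjusted p of 0.0588 to 0.233. EXLA1, an expansin-like protein, rose by 0.58 (limma adjusted p = 0.0241), the 1 call among 16 tested expansins and xyloglucan enzymes, and CSLD2, of the cellulose synthase-like group, by 0.51 (limma adjusted p = 0.0183). The call of EXLA1 was lost in 4 and that of CSLD2 in 3 of the 6 fits without 1 array, at adjusted p of 0.0504 to 0.103 and 0.0717 to 0.109.

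Several rises belonged to hormone conjugation and signalling. GH3.17, which joins auxin to glutamate, had 90.7, 101 and 147 at 2 h and 766, 729 and 891 at 8 h. The 2 h arrays did not differ from untreated stamens by the test (log2 change -0.01, limma adjusted p = 0.997), and the step to 8 h was 2.67 (95% interval 2.16 to 3.19, limma adjusted p = 2.98e-07). By 22 h the mean was 238 ± 95.1 (SD, n = 3), a log2 change of -1.76 from 8 h (limma adjusted p = 2.62e-05), so that the 8 h group held the high point of the course. UGT74D1, a glucosyltransferase that accepts auxins, had 301, 237 and 287 at 2 h and 1364, 1397 and 1143 at 8 h and a log2 change of 2.18 (95% interval 1.65 to 2.71, limma adjusted p = 7.36e-06). GH3.3, a close relative of GH3.17, was at 11.2 to 35.4 on all 6 arrays with a log2 change of 0.06 (limma adjusted p = 0.951), and reached a mean of 897 only at 22 h.

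RR16, a type-A response regulator of cytokinin signalling, had 227, 185 and 190.0 at 2 h and 859.5, 865 and 719 at 8 h, without overlap, and a log2 change of 1.94 (95% interval 1.33 to 2.55, limma adjusted p = 0.000156). ARR15, the other tested gene of the cytokinin list, had a log2 change of -0.05. IAA18, an Aux/IAA repressor of auxin response, fell by 0.67 on the log2 scale (limma adjusted p = 0.0138). The adjusted p of IAA18 was 0.0973 without JA 2 h replicate 1 and 0.0727 without JA 8 h replicate 3. Of 5 tested auxin genes, then, 1 rose and 1 fell.

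The courses of these genes show that a rise between 2 h and 8 h did not have 1 shape. For GH3.17, GH9B17, ALDH2C4 and RR16 the mean at 8 h was the highest of the JA course, whereas OCT1 rose further to 22 h.

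**Figure D2:**
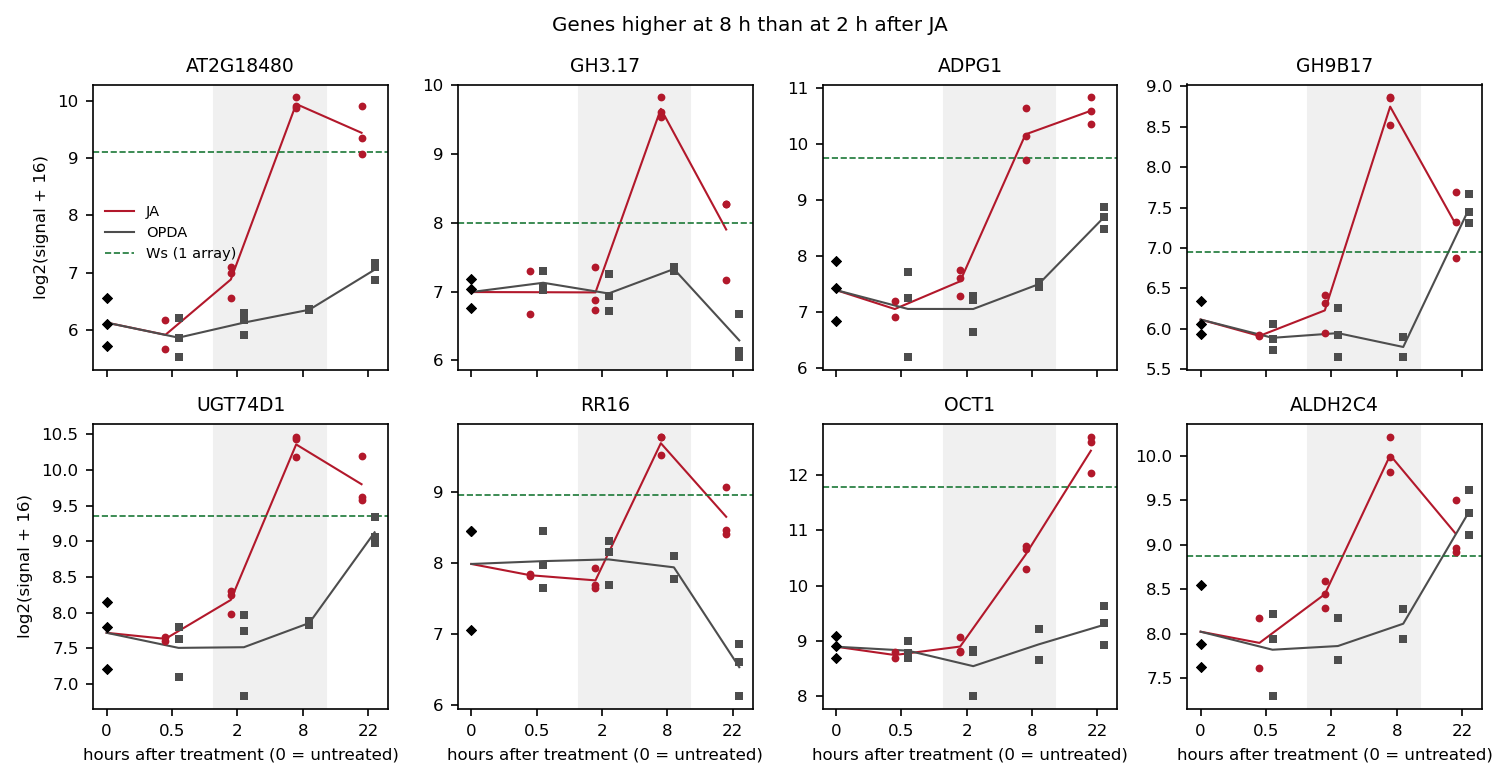
Signal as log2(signal + 16) against hours after treatment (time points evenly spaced, 0 for untreated) for 8 genes that rose between 2 h and 8 h after JA, the interval shaded. Points are arrays, red for JA and grey for OPDA, lines join group means, and the dashed line is the 1 Ws array. At 8 h the red points of each gene lie above all of its red points at 2 h, while the grey points of AT2G18480 and ADPG1 stay near their 2 h level.

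Other rises with a symbol, chosen after their values were seen, were enzymes and transporters of primary metabolism and membranes. OCT1, a carnitine transporter, had 525, 435 and 432 at 2 h and 1606, 1664 and 1242 at 8 h and a log2 change of 1.66 (95% interval 1.2 to 2.12, limma adjusted p = 4.13e-05). Its mean at 22 h was 5638 ± 1282 (SD, n = 3), and the Ws array read 3525. STR18, a sulfurtransferase, rose by 1.45 (limma adjusted p = 0.000159) and TET8, a membrane tetraspanin, by 1.35 (limma adjusted p = 1.01e-05). TET8 had 429, 395 and 398 at 2 h and 1023, 1252 and 946 at 8 h, and at 22 h it was back at 422 ± 116 (SD, n = 3). AR791 followed a like course, with 92, 78.8 and 71.2 at 2 h and 243, 273 and 250.2 at 8 h, a log2 change of 1.49 (limma adjusted p = 6.23e-06) and a 22 h mean of 93.9.

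NDC1, a plastid NAD(P)H dehydrogenase, rose by 1.24 (limma adjusted p = 0.000230), and AAE16, an acyl-activating enzyme, by 1.26 (limma adjusted p = 4.94e-05). GPDHC1, a cytosolic glycerol-3-phosphate dehydrogenase, rose by 0.91 (limma adjusted p = 2.10e-05). FDH, the mitochondrial formate dehydrogenase, rose by 0.82 (limma adjusted p = 0.00146), and GSTU18, a glutathione S-transferase, by 1.02 (limma adjusted p = 0.00135). GSTU18 was the 1 call among 7 tested members of its family, and both FDH and GSTU18 stood higher still at 22 h, at means of 853 and 538. The groups did not overlap for any of these 5 genes, and each kept its call without any 1 of the 6 arrays.

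For each of 2 enzymes, a pair of subunit genes went in opposite directions. ACLA-1 encodes a subunit of ATP-citrate lyase, which supplies cytosolic acetyl-CoA, and had 1519, 1659 and 1377 at 2 h and 2528, 2686 and 2379.9 at 8 h, a log2 change of 0.73 (limma adjusted p = 0.00409). ACLB-1, for the other subunit, had 1139.9, 1092 and 1112 at 2 h and 869, 634 and 772 at 8 h, a log2 change of -0.56 (limma adjusted p = 0.0489), but its call was lost in 5 of 6 fits without 1 array, at adjusted p of 0.0883 to 0.289. APL3 and APL4 are large subunits of ADP-glucose pyrophosphorylase, the enzyme that commits glucose to starch. APL4 had 531, 436 and 380.4 at 2 h and 211, 145 and 144 at 8 h and a log2 change of -1.35 (95% interval -1.85 to -0.86, limma adjusted p = 0.000858). APL3 had 99, 85.3 and 124 at 2 h and 226, 201 and 162 at 8 h and a log2 change of 0.84 (limma adjusted p = 0.0113), with adjusted p of 0.0504 without JA 2 h replicate 1, 0.0733 without JA 2 h replicate 2, 0.0546 without JA 8 h replicate 1 and 0.0520 without JA 8 h replicate 2. All 4 genes were chosen after their values were seen, and a difference between the members of a pair was not tested.

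Of the 12 largest rises, 9 have no symbol. AT2G18480 had the largest of them, with 120.4, 77.9 and 111 at 2 h and 1048, 918 and 939 at 8 h and a log2 change of 3.06 (95% interval 2.60 to 3.53, limma adjusted p = 7.12e-09). AT5G65380 had the smallest adjusted p of the 12, with 101, 114 and 92.7 at 2 h and 657, 611 and 553 at 8 h, a log2 change of 2.40 (limma adjusted p = 2.88e-10) and a mean of 2256 at 22 h. AT2G29670 had 178, 176 and 155 at 2 h and 1115, 1176 and 1045 at 8 h, with a log2 change of 2.60 (limma adjusted p = 1.76e-09). The groups were far apart for all 3 loci.

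AT3G52740 and AT5G08250 started from signals under 20 and stood higher still at 22 h. AT3G52740 had 18.6, 12.3 and 1 at 2 h and 182, 128 and 101 at 8 h, a log2 change of 2.55 (limma adjusted p = 2.35e-05), and a mean of 669.6 at 22 h. AT5G08250 had 19.7, 18.1 and 10.9 at 2 h and 158, 177 and 144 at 8 h, a log2 change of 2.45 (limma adjusted p = 7.78e-07), and 497 at 22 h. The other 4, AT4G18425, AT5G08480, AT3G25290 and AT4G39130, rose by 2.89, 2.52, 2.48 and 2.41 on the log2 scale, with limma adjusted p of 5.89e-07, 1.02e-05, 3.04e-07 and 0.000815. Each of the 12 largest rises kept its call in every alternative fit that tested it, and the filter on a mean signal of 100 left AT5G08250 out.

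Genes known from pollen lay above 0 as a list, and few of them passed the test. All 12 tested members had a log2 change above 0, beside 3201 of all 7502 tested genes. Their median was 0.79, beside -0.04 over all, and 2 of 12 were called higher, beside 1.92% over all. The lowest member, RALFL25, was at 0.02. All 8 tested genes of nuclear-encoded respiration also lay above 0, with a median of 0.16. AtVEX1, a pollen marker outside this list, had a log2 change of 0.06 (limma adjusted p = 0.930). NET2D, an actin-binding protein of the pollen tube membrane, had 162, 265 and 189.7 at 2 h and 349, 560.0 and 338 at 8 h and a log2 change of 0.95 (limma adjusted p = 0.00791). Its adjusted p was 0.0684 without JA 2 h replicate 1 and 0.0852 without JA 8 h replicate 2. ACT11, an actin of reproductive tissue, had 512, 715 and 699 at 2 h and 1060.1, 1149.9 and 803 at 8 h and a log2 change of 0.63 (limma adjusted p = 0.0430), and lost its call in 5 of 6 fits without 1 array, at adjusted p of 0.0544 to 0.253.

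Without JA 8 h replicate 2 the list's median was 0.26, with 10 of 12 members above 0 and none called by limma. ANX1, a receptor kinase that keeps the growing pollen tube intact, had 86.5, 99.5 and 102 at 2 h and 134, 397 and 173 at 8 h. The groups were apart and JA 8 h replicate 2 was the highest, with a log2 change of 1.02 (limma adjusted p = 0.0855) and an adjusted p of 0.0150 with the replicate block, 0.0489 with the scan day block and 0.0295 without JA 8 h replicate 1. PLIM2a, an actin-bundling protein, had 341, 442 and 304 at 2 h and 568, 2282 and 574 at 8 h and a log2 change of 1.31 (limma adjusted p = 0.271). The summed signal of the 6 named pollen markers was highest on JA 8 h replicate 2. That sum includes NET2D, ANX1 and PLIM2a, so it repeats these values and adds no separate measure. The part of that array in these values was not tested.

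The falls included a group of proteins known for cold and drought tolerance. Dehydrins and LEA proteins protect membranes and other proteins from drying. Of 10 tested genes of their list, 4 fell and none rose, beside 2.81% lower and 1.92% higher over all 7502 tested genes. The list's median was -0.14, beside -0.04 over all. LTI30, a dehydrin, had 231, 228 and 156 at 2 h and 25.1, 27.1 and 20.4 at 8 h. The groups were far apart, and the log2 change was -2.44 (95% interval -3.11 to -1.78, limma adjusted p = 3.20e-05). LTI30 had already fallen by 1.41 on the log2 scale between untreated and 2 h stamens (limma adjusted p = 0.0151), from a mean of 594 ± 256 (SD, n = 3).

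COR15A, a plastid protein that stabilises membranes during freezing, had 5148, 5543 and 4086 at 2 h and 2085, 1856 and 1722 at 8 h, among the brightest probe sets of the falls, and a log2 change of -1.37 (95% interval -1.82 to -0.92, limma adjusted p = 0.000266). COR15B, its close relative and neighbour in the genome, fell by 1.02 (limma adjusted p = 0.00611), with an adjusted p of 0.0590 without JA 8 h replicate 2. The dehydrin LEA had 2223, 1959 and 2266 at 2 h and 732, 229.5 and 339 at 8 h, a log2 change of -2.42 (limma adjusted p = 0.0120). Its adjusted p was 0.0504 without JA 2 h replicate 1 and 0.0926 without JA 8 h replicate 2. The other 6 tested members, COR47, AT2G46140, AT2G44060, LEA4-5, LEA18 and COR27, had log2 changes of -0.17 to 0.17 and were not called. The list was drawn by gene name, and COR27 is in it by its name and not as a dehydrin or LEA protein. Without JA 8 h replicate 2, 2 of the 10 were called lower.

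A further pair of genes named for cold or aluminium response, chosen after their values were seen, was lower as well. TIL, a temperature-induced lipocalin, fell by 0.76 (limma adjusted p = 0.0162), with an adjusted p of 0.0714 without JA 2 h replicate 1 and 0.113 without JA 8 h replicate 2. AILP1 fell by 0.90 (limma adjusted p = 0.00383), from 1008 ± 50.6 (SD, n = 3) to 535 ± 84.9 (SD, n = 3).

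Some genes of sugar transport were also lower. SWEET11, a sucrose exporter, had 545, 636 and 465 at 2 h and 238, 261 and 218 at 8 h and a log2 change of -1.14 (95% interval -1.43 to -0.85, limma adjusted p = 1.54e-05). Its groups were apart, and the 22 h mean was 283 ± 28.1 (SD, n = 3). SWEET2 fell by 0.54 (limma adjusted p = 0.0467), a call lost in 5 of 6 fits without 1 array at adjusted p of 0.0608 to 0.297. None of 15 tested SWEET genes rose and 2 fell, beside 2.81% lower over all 7502 tested genes, and their median was -0.20. Without JA 2 h replicate 1, 1 of 14 rose and 1 fell. SWEET14, with a mean of 3835 at 22 h, was still at 3.60 to 15.2 on all 6 arrays (log2 change -0.19, limma adjusted p = 0.862). TMT2, which moves monosaccharides into the vacuole and was chosen after its values were seen, had 248, 229 and 213 at 2 h and 104, 96.4 and 108 at 8 h and a log2 change of -1.05 (95% interval -1.37 to -0.74, limma adjusted p = 9.43e-05).

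A few genes stood high at 2 h and were lower again at 8 h. NAI1, a bHLH factor needed for the endoplasmic reticulum bodies that store beta-glucosidases, had 259, 189 and 125 at 2 h and 31.9, 24.8 and 15.9 at 8 h. Its mean was 13.4 ± 4.6 (SD, n = 3) in untreated and 7.2 ± 5.07 (SD, n = 3) in 22 h stamens, and the log2 change from 2 h to 8 h was -2.33 (95% interval -2.92 to -1.75, limma adjusted p = 1.20e-05). UGT74B1, a glucosyltransferase of glucosinolate synthesis, had 538, 362 and 377 at 2 h and 189, 136 and 158 at 8 h and a log2 change of -1.31 (95% interval -1.74 to -0.88, limma adjusted p = 0.000272). Its untreated mean was 81.4 ± 22.6 (SD, n = 3). These were the 2 calls among 6 tested glucosinolate and ER body genes, beside 2.81% lower over all 7502 tested genes.

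UGT87A2 went the same way, with a rise of 1.21 from untreated to 2 h (limma adjusted p = 0.00170) and a log2 change of -0.76 (limma adjusted p = 0.0470) from 2 h to 8 h. Its call was lost in 5 of 6 fits without 1 array, at adjusted p of 0.0698 to 0.297. UGT74F1, which glucosylates salicylic acid, had 72.7, 54.3 and 66 at 2 h and 49.4, 9 and 7.7 at 8 h, a log2 change of -1.24 (limma adjusted p = 0.0268) lost in 5 of 6 such fits at adjusted p of 0.0514 to 0.177. Of 22 tested glycosyltransferases 1 rose and 3 fell, beside 1.92% higher and 2.81% lower over all 7502 tested genes. STZ (ZAT10), a zinc finger repressor of stress genes, had 67.8, 71.1 and 77.4 at 2 h and 30, 31.8 and 24.7 at 8 h and a log2 change of -0.98 (limma adjusted p = 0.00317).

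**Figure D3:**
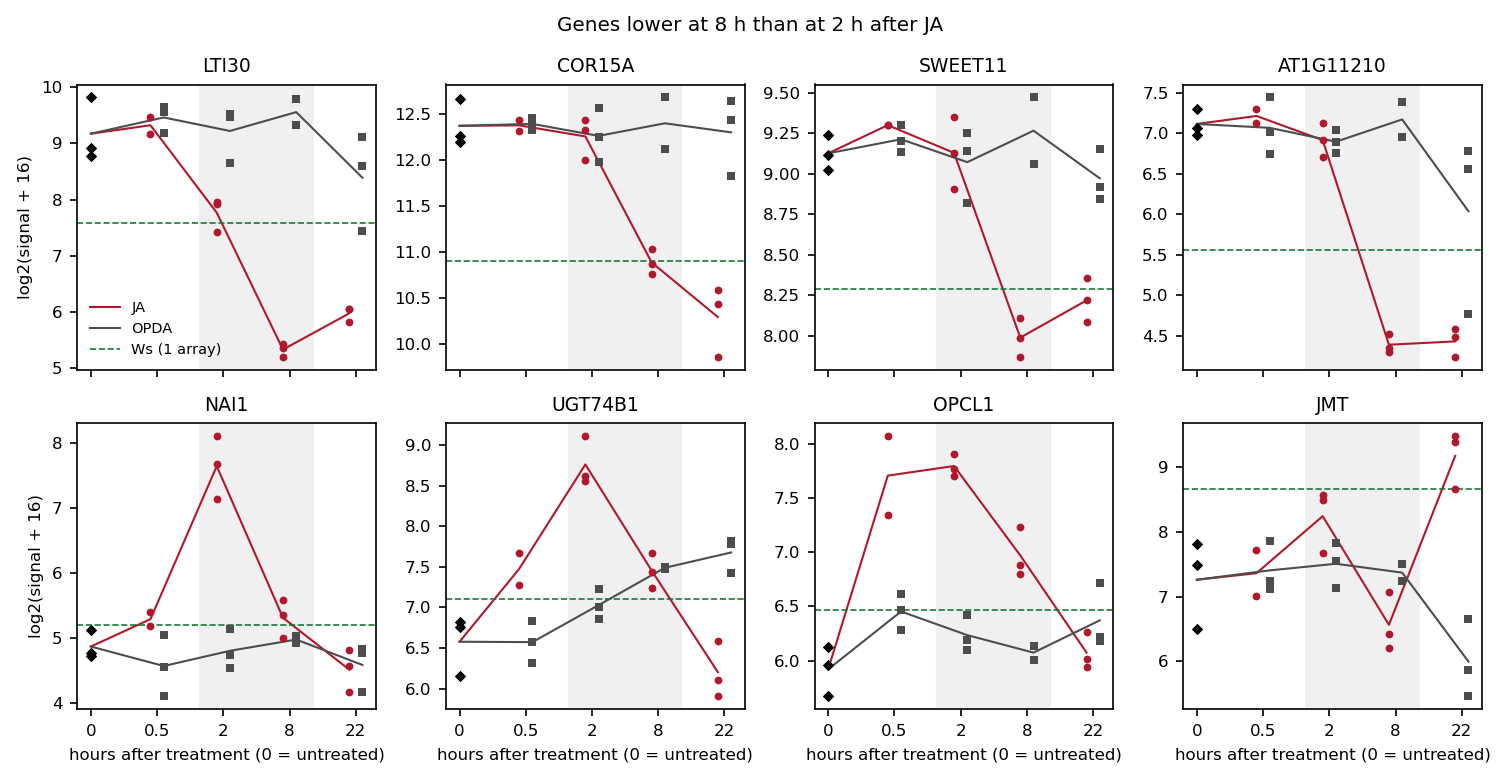
Signal as log2(signal + 16) against hours after treatment (time points evenly spaced, 0 for untreated) for 8 genes that fell between 2 h and 8 h after JA, the interval shaded. Points are arrays, red for JA and grey for OPDA, lines join group means, and the dashed line is the 1 Ws array. COR15A, SWEET11 and AT1G11210 fall from near their untreated level, and LTI30 from a level already lowered at 2 h. NAI1 and UGT74B1 fall from a peak at 2 h, OPCL1 from a level reached by 0.5 h, and JMT rises again at 22 h.

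A few genes of early anther development and of the tapetum, the nursing layer of the pollen sac, were lower at 8 h. JA 8 h replicate 1 was the highest of the 8 h arrays for ATA27 and SPL. The same held for SDT, which is given with them for its like pattern and not as a gene of the tapetum. ATA27 (BGLU20), a beta-glucosidase of the tapetum, had 633, 311 and 538 at 2 h and 339, 21 and 22.2 at 8 h. JA 8 h replicate 1 lay inside the 2 h range and the groups overlapped, with a log2 change of -2.63 (limma adjusted p = 0.0256), and the adjusted p was 0.116 without JA 2 h replicate 1, 0.0833 without JA 2 h replicate 3, 0.185 without JA 8 h replicate 2 and 0.126 without JA 8 h replicate 3. Its mean at 22 h was 5.03 ± 5.69 (SD, n = 3), and OPDA stamens fell from 518 at 8 h to 17.3 at 22 h. AMS, the other named tapetum gene, was not tested because of low signal.

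SDT, an acyltransferase that makes spermidine conjugates, had 82.4, 38.4 and 53.6 at 2 h and 25, 2 and 2.2 at 8 h and a log2 change of -1.60 (limma adjusted p = 0.00223), with an adjusted p of 0.0502 when only the compared groups were fitted. SPL (SPOROCYTELESS), required for the cells that enter meiosis, had 76.4, 30.3 and 68.4 at 2 h and 19.4, 2.1 and 6.3 at 8 h and a log2 change of -1.55 (limma adjusted p = 0.00700), with an adjusted p of 0.0579 without JA 2 h replicate 1 and 0.0600 without JA 8 h replicate 2. EMS1, a receptor kinase that specifies the tapetum, fell by 0.57 (limma adjusted p = 0.0324), a call lost in 5 of 6 fits without 1 array at adjusted p of 0.0524 to 0.192. SDT, SPL and EMS1 were chosen after their values were seen.

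Other falls covered a range of roles. WSD1, a wax ester synthase, had 211, 176 and 161 at 2 h and 92.2, 48.1 and 81.9 at 8 h and a log2 change of -1.17 (limma adjusted p = 0.00114). AT1G59740 (NPF4.3), of a family of nitrate and peptide transporters, fell by 1.66 (limma adjusted p = 0.00615), with an adjusted p of 0.0671 without JA 8 h replicate 2. BGLU41 fell by 1.03 (limma adjusted p = 0.0312), a call lost in 4 of 6 fits without 1 array at adjusted p of 0.108 to 0.168. ENGase85B, which removes N-linked glycans, APK1A, a protein kinase, and NET4B, an actin-binding protein, were chosen after their values were seen. They fell by 1.07, 1.17 and 1.06 on the log2 scale, with limma adjusted p of 0.00198, 0.000493 and 0.000601.

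Of the 12 largest falls, 8 have no symbol. AT1G11210 had 124, 105 and 88.4 at 2 h and 4.4, 3.7 and 6.9 at 8 h, and its log2 change of -2.53 (95% interval -3.20 to -1.85, limma adjusted p = 2.35e-05) is compressed by the added 16, which exceeds the signal of every 8 h array. AT2G05540 had 349, 415 and 472 at 2 h and 32.4, 94 and 96.3 at 8 h and a log2 change of -2.33 (limma adjusted p = 0.000939). AT2G37750 had 1053, 1087 and 1033 at 2 h and 449.8, 175 and 227 at 8 h and a log2 change of -1.95 (limma adjusted p = 0.00148). These 3 loci, AT1G23520 and AT1G23570 kept their calls without any 1 of the 6 arrays.

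The 8 h arrays differed among themselves for the remaining loci too, as they did for AT2G37750 and for AT1G23520, which had 184.8, 58.9 and 58 at 8 h. AT5G61605 had 1351, 1252 and 1213 at 2 h and 716, 188 and 228 at 8 h, with JA 8 h replicate 1 above both others and a log2 change of -1.96 (limma adjusted p = 0.00736). Its adjusted p was 0.0716 without JA 8 h replicate 2. AT1G28375 fell by 1.80 (limma adjusted p = 0.00687), which became 0.0754 without JA 8 h replicate 2. AT1G23240 fell by 1.80 (limma adjusted p = 0.0243), a call lost in 5 of 6 fits without 1 array at adjusted p of 0.0623 to 0.194. For AT1G23240, AT1G28375 and AT5G61605 the 22 h means were 281, 46.1 and 129, below every 8 h array.

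The same 6 h interval after OPDA gave no called change. Of 14028 probe sets tested between OPDA 8 h (2 arrays) and OPDA 2 h (3 arrays), limma called 0 (0.0%). At an unadjusted limma p under 0.05 there were 561, a smaller share than that limit passes when nothing changes. The JA step had 2350 at that limit. The median 95% interval reached 0.42 to either side for the OPDA step and 0.37 for the JA step on the log2 scale. Tested directly, the JA step differed from the OPDA step for 217 probe sets (1.55%), 110 higher (0.784%) and 107 lower (0.763%). Among them, 105 had been called higher and 98 called lower in the JA step, a description only, since the JA arrays enter both counts. Leaving out 1 array gave 77 to 284 calls. The fewest were 77 without OPDA 8 h replicate 1 and 105 without OPDA 8 h replicate 3, each of which leaves a lone OPDA 8 h array that is assumed to vary like the other groups. It was 120 without JA 8 h replicate 2 and 142 without JA 2 h replicate 1.

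Named genes illustrate the difference. AT2G18480 had means of 54.2 and 65.6 after OPDA, and its difference of steps was 2.84 (limma adjusted p = 3.03e-05). GH9B17 had 46.6 and 39 after OPDA (difference 2.69, limma adjusted p = 7.32e-06), although at 22 h the OPDA mean of 163 was close to the JA mean of 145. LTI30 had 603 and 749 after OPDA (difference -2.78, limma adjusted p = 0.00250). COR15A and SWEET11 likewise stayed near their untreated level after OPDA, with differences of -1.51 (limma adjusted p = 0.0161) and -1.33 (limma adjusted p = 0.00116). For COR15A the adjusted p of the difference was 0.0528 and 0.190 in the fits without OPDA 2 h replicate 2 or OPDA 8 h replicate 1, and the other 4 genes kept it without any 1 of 11 arrays.

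Some of the genes above did not pass the test of the difference. JMT had a difference of -1.54 (limma adjusted p = 0.184), ALDH2C4 of 1.31 (limma adjusted p = 0.0795), OPCL1 of -0.66 (limma adjusted p = 0.312) and OCT1 of 1.26 (limma adjusted p = 0.0581). AT1G06250 was named for its difference of -2.1 (limma adjusted p = 0.0333), a call lost in 7 of 11 fits without 1 array at adjusted p of 0.0679 to 0.209. In the JA step it fell by 1.44 (limma adjusted p = 0.0104), with adjusted p of 0.0693 without JA 2 h replicate 1, 0.0762 without JA 8 h replicate 2 and 0.0563 without JA 8 h replicate 3.

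**Figure D4:**
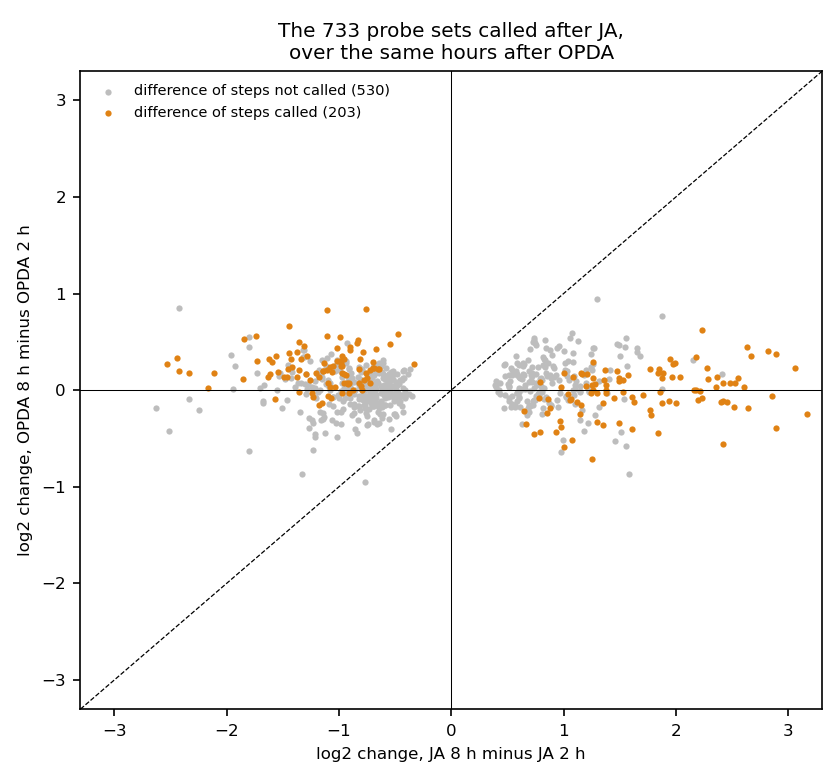
Log2 change from 2 h to 8 h after OPDA (vertical axis) against the log2 change over the same hours after JA (horizontal axis) for the 733 probe sets called in the JA step, with the diagonal dashed. Orange points are the 203 whose difference of steps was also called, and all points lie within 1 of 0 on the OPDA axis.

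The called probe sets were also followed on arrays outside the JA 2 h and JA 8 h groups. Except for Ws, these arrays had entered the model's shared estimate of spread and the signal filter. In the OPDA step the 304 rises had a median of 0.06 and 58.9% of them were above 0, against a median of -0.02 and 45.9% over all tested probe sets. For the 429 falls the OPDA median was 0.04, with 60.8% above 0. From untreated to 22 h after JA, the rises had a median of 1.24 (89.1% above 0) and the falls one of -0.98 (9.56% above 0), with -0.21 over all probe sets. From untreated to 22 h after OPDA the medians were 0.38 and -0.22, with -0.09 over all. On the 1 Ws array, set against untreated opr3 with no test, the rises had a median of 0.99 (93.4% above 0) and the falls of -0.43 (14.5% above 0), with -0.14 over all. The comparisons of JA 22 h, OPDA 22 h and Ws with untreated stamens share those 3 untreated arrays.

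Most of the gene lists showed few changes or none. Of 15 tested genes of vesicle traffic, 12 of the proteasome and ubiquitin system, 11 MADS-box factors, 11 autophagy genes, 11 cell cycle and histone genes and 8 of nuclear-encoded respiration, none was called. Their medians were 0.10, -0.12, 0.26, -0.11, 0.01 and 0.16. Of 11 tested nuclear photosynthesis genes 1 was called, LHCB4.2, a light-harvesting protein, which rose by 0.73 (limma adjusted p = 0.0177) with adjusted p of 0.123 without JA 2 h replicate 2, 0.0522 without JA 8 h replicate 1 and 0.0504 without JA 8 h replicate 3. GI, a clock gene and the 1 tested of its list, had 50.8, 71 and 112 at 2 h and 108, 88.4 and 102 at 8 h, with overlap and a log2 change of 0.35 (limma adjusted p = 0.392).

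**Figure D5:**
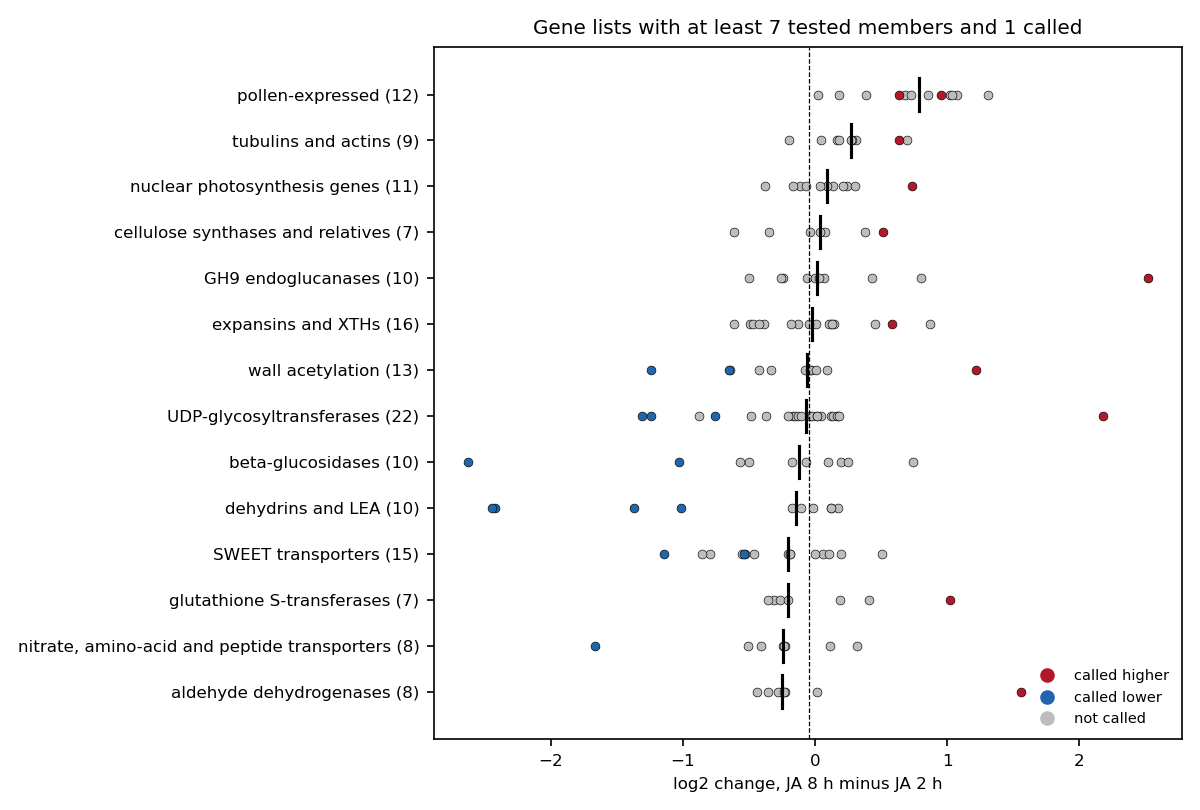
Log2 change from 2 h to 8 h after JA (horizontal axis) of each tested member of the lists with at least 7 tested members and 1 called, with the number tested in brackets. Red points are called higher, blue lower and grey not called, the black bar is the list's median and the dashed line the median of all 7502 tested genes. All 12 pollen-expressed genes lie above 0, and the 4 called dehydrins and LEA proteins lie below -1.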

How the data were processed

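RNA of stamens was hybridised to 1-colour ATH1 arrays, 1 per sample. The deposited values are signal intensities per probe set on a linear scale, made by the authors with MAS5 and scaled to a target of 125, per the labels; detection calls and background are not given in the sources used here. Scan day and chip lot came from the arrays' processing records. Precision is limited by how many arrays each group holds.

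The scale was log2 of signal plus 16. Of 22810 probe sets, 14028 read 50 or more on 2 or more arrays and entered limma 3.58.1 in R 4.3.3. One model held 25 arrays in 9 opr3 groups with 16 residual degrees of freedom (eBayes with an intensity trend). The contrasts were JA 8 h minus JA 2 h, OPDA 8 h minus OPDA 2 h and their difference, two-sided, with Benjamini-Hochberg adjustment over all tested probe sets in each and calls at an adjusted p under 0.05. Replicate numbers come from the labels. Deviations from the group means correlated across probe sets by 0.22, 0.33 and 0.43 for equal numbers of JA 2 h and JA 8 h. For unequal numbers the values were -0.37 to -0.05, which partly follows because deviations within a group cancel out. Replicates 2 and 3 of both groups shared a scan day and replicate 1 did not. Pairing by number and by scan day were therefore not fully separated.

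Gene names came from the platform's pairing (13513 with 1 gene, 503 with several, 8794 with none) and from RefSeq symbols of TAIR10.1. Genes named are the 12 largest rises and 12 largest falls with 1 gene, groups apart and a higher mean of at least 100, the 4 largest differences of steps each way, up to 4 called members of each of 63 lists, and a fixed set. The members and lists were chosen with earlier results of these data known. Patterns of the autophagy and P450 lists were corrected before fold changes were seen, and an entry that took the kinase APK1A into the glucosinolate list was removed afterwards. A planned search of promoters for motifs was not run, and no sequences are shown. On simulated data with 200 changed among 14028 probe sets, the JA step recovered 79% of 2-fold and 28% of 1.5-fold changes. Of the calls made there, 6.14% were false. Recovery was not measured separately for dim probe sets, to which these rates may not apply. Deviations on the real arrays correlated by 0.22 to 0.43 for equal replicate numbers, and the rates on those arrays were not tested. The alternatives tried were a pseudocount of 1 or 64, the filter dropped or set to a mean of 100, quantile, 75th percentile and median scaling, the compared groups alone, blocks of replicate number, scan day and chip lot, no trend, array weights, the identical arrays kept, a 2-fold limit, and each array left out.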

Additional observations from a re-analysis of the deposited data

Results flagged for a closer look

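The step from 2 h to 8 h differed between the JA and OPDA series for 217 probe sets by limma's test of the difference. Among the named genes 35 passed that test, and each value below is the log2 change after JA minus that after OPDA. Genes that were higher after JA had limma adjusted p between 3.83e-07 and 0.0253. Among loci without a symbol the differences were 2.84 for AT2G18480, 2.51 for AT4G18425, 2.57 for AT2G29670, 2.43 for AT3G52740, 2.45 for AT5G08480, 2.41 for AT3G25290, 2.58 for AT5G08250 and 2.52 for AT5G65380. Hormone and wall genes gave 2.32 (GH3.17), 1.84 (UGT74D1), 2.05 (RR16), 2.19 (ADPG1) and 2.69 (GH9B17). STR18 gave 1.53, TET8 1.49, NDC1 1.27 and AR791 1.84.

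Genes that were lower after JA had limma adjusted p between 0.00116 and 0.0402. Cold- and stress-related genes gave -2.78 (LTI30), -1.51 (COR15A), -1.45 (COR15B) and -1.32 (AILP1). Sugar and starch genes gave -1.33 (SWEET11), -1.30 (TMT2) and -1.85 (APL4). The difference was -2.51 for NAI1, -1.77 for UGT74B1 and -1.88 for SDT. The loci AT1G11210, AT1G06250 and AT2G31110 gave -2.80, -2.10 and -1.22. RXF26 gave -1.02, PTI1-4 -1.09, APK1A -1.31, MAP1C -1.04 and ENGase85B -1.32.

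Of the 35 calls, 17 were kept in every fit without 1 array. In the fit without OPDA 8 h replicate 1, 17 were lost, and in that without OPDA 8 h replicate 3, 13. OPDA 8 h holds 2 arrays, and a replicate 2 was not analysed here.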

How the results depend on the processing

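The JA step kept both directions under all alternatives. With the replicate block it gave 1272 calls and the difference of steps 426. No named call was lost under that block. A limit of 2-fold left 300 calls. Leaving out 1 array gave 396 to 731 calls for the JA step and 77 to 284 for the difference of steps, and none for the OPDA step, which limma called at 0 probe sets in every alternative. Blocks of scan day and of chip lot, which leave out OPDA 8 h replicate 1, gave 120 and 96 calls for the difference. The compared groups alone gave 502 calls in the JA step, 451 of them among the 733, and ended 26 of the 87 named calls, among them SDT. The share of rises among calls was 41.5%, and 50.9% after median centring. Of the 87, 49 were kept without any 1 array and 38 were lost in at least 1 fit. JOX2 was called with a pseudocount of 64 (limma adjusted p = 0.00667) and with the compared groups alone (0.0217). The sign turned only for genes that were not called. Leaving out 1 array gave log2 changes of -0.61 to 0.019 for ORA47, -0.18 to 0.28 for GH3.3, -0.14 to 0.23 for AtVEX1 and -0.35 to 0.057 for RCA. AtVEX1 was at -0.0039 with quantile normalization and at -0.051 with the scan day block, under which GH3.3 was at -0.024. SWEET14 was at 0.029 with the chip lot block. The cause of these shifts was not tested.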

Other observations

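Several loci that lie close to each other on chromosome 1 fell. In RefSeq's gene order 18 protein-coding loci run from AT1G23510 to AT1G23690, of which 12 were tested. All 12 had a log2 change below 0 from 2 h to 8 h after JA, and 7 were called lower by limma, beside 2.81% called lower and 3201 above 0 among all 7502 tested genes. The other 5 did not pass the test, with log2 changes of -1.24 to -0.0055. AT1G23640 went from a mean of 93.8 ± 13.8 to 20.8 (n = 3 in each group), with a log2 change of -1.63 and a limma adjusted p of 9.21e-05. AT1G23520, AT1G23570, AT1G23580, AT1G23600, AT1G23610 and AT1G23670 had log2 changes of -1.93, -1.67, -1.43, -1.41, -1.29 and -1.18. The run was chosen after its values were seen, and the signal that related sequences share between probe sets was not tested.

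Over the genome, 2272 pairs of neighbouring genes were both tested, and 210 pairs held at least 1 call. Both members were called lower in 11 pairs, both higher in 2 and in opposite directions in 2. The 11 pairs are not separate events, since AT1G23610, AT2G31110 and CPUORF47 each belong to more than 1 of them. Some of these pairs also lie in the run on chromosome 1 given above. The number of such pairs to be met without any link between neighbours was not computed. COR15A and COR15B were among the pairs that both fell, and NDC1 and AT5G08750, with log2 changes of 1.24 and 1.87, among those that both rose.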
